A study of Mus musculus with 16 samples.

Results

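The genes described here are the Wnt ligands with their receptors, agonists and antagonists, together with the TCF/LEF factors and feedback inhibitors of the pathway, in cultured mouse islets. Members were the protein-coding genes named Wnt or Fzd with a digit, Sfrp, Dkk or Rspo with a digit, or *Axin2*, *Lgr4*, *Lgr5*, *Lrp5*, *Lrp6*, *Tcf7*, *Tcf7l2*, *Lef1* or *Nkd1*, that had at least 10 counts in at least 4 of the 16 libraries. Of 50 genes with such a name, 33 met the count rule, out of 52636 genes in the count table and 14861 protein-coding genes that met the same rule. The members were 9 of 19 Wnt ligands, 1 of 4 R-spondins, 5 of 8 secreted antagonists, 9 of 10 Frizzled receptors, both Lrp co-receptors, both Lgr receptors, all 3 TCF/LEF factors and both feedback inhibitors.

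Islets, the endocrine cell clusters of the pancreas, came from 12-week-old male mice of the strain C57BL/6JRj by the labels and C57BL/6NRj by the study's methods. They were cultured for 10 days with no addition (control), with 50 pg/mL of the inflammatory cytokine IL-1β, with 0.2 mM of the short-chain fatty acid butyrate, or with both, in medium with 2% human serum that was renewed at day 5. Each of the 4 conditions had 4 libraries, numbered as replicates 1 to 4 and each made from 500 islets pooled from several mice, so that a replicate is a pool and not an animal. The design asks how butyrate alters the response of islets to IL-1β, and gives the effect of each agent alone, of each in the presence of the other, of both together, and a test of whether butyrate acts differently when IL-1β is there.

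Wnt proteins are secreted, lipid-modified ligands. In the canonical branch they bind a Frizzled receptor together with Lrp5 or Lrp6, the destruction complex then no longer degrades beta-catenin, and beta-catenin acts with TCF/LEF factors on target genes that include the feedback inhibitors *Axin2* and *Nkd1*. R-spondins bind Lgr receptors and keep Frizzled receptors at the cell surface, Sfrp proteins bind Wnts outside the cell, and several Dkk proteins block the co-receptors. The pathway has known roles in pancreas development and in beta cell growth and function, and the human counterpart of *Tcf7l2* is a known risk gene for type 2 diabetes.

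Libraries held 18635943 to 25955943 counts on genes (median 22184715). Of all genes, 18587 passed the filter on low counts and were tested, including all 33 members. A gene is called raised or lowered where edgeR's quasi-likelihood test gave an adjusted p (Benjamini-Hochberg over all tested genes) under 0.01, and levels are in CPM (counts scaled to the size of the library, with TMM factors) or, between genes, in CPM per kilobase of exon (RPKM). The 12 beta cell markers, which define the labelled tissue, summed to between 218000 and 240900 CPM in control libraries. With IL-1β this sum was between 140600 and 182600 CPM (2 markers raised and 9 lowered), with both agents between 140800 and 173500 CPM, and with butyrate between 226900 and 266300 CPM. The 10 macrophage markers summed to between 130.8 and 143.4 CPM in control, 188.3 and 237.2 with IL-1β (9 raised, 1 lowered), 102.2 and 141.7 with both, and 86.8 and 107.2 with butyrate. Most of this sum in control was *C1qa* (111.3 ± 11.1 CPM), which fell to 51.2 ± 5.5 CPM with both agents, while 7 of the 10 markers were raised and 1 lowered against control (median log2 1.52). The 10 duct markers summed to between 711.7 and 775 CPM in control between 971.5 and 1112 with IL-1β (5 of 9 tested raised), between 954.8 and 1229 with both agents (3 of 9 raised against control) and between 679.1 and 748.1 with butyrate (0 of 9). The mesothelial sum (6 markers) was 41.5 to 64.5 CPM in control and 44.6 to 53.5 with IL-1β, but 14.01 to 15.99 with butyrate and 13.8 to 17.3 with both, and *Msln* was the 1 of 4 tested that was lowered by butyrate either without or with IL-1β. The delta cell sum (5 markers) was 1697 to 1995 CPM in control, 1748 to 2223 with IL-1β, 2395 to 2776 with butyrate and 2627 to 3191 with both, and *Sst* was the 1 of 5 raised by butyrate in each case. In the presence of IL-1β, butyrate also lowered 1 of the 5. The median log2 fold change of these markers by butyrate was 0.072 without and 0.003 with IL-1β. The sum of the 10 endothelial markers was lower without butyrate (12.5 to 18.8 CPM) than with it (20.0 to 26.3 CPM), with 1 of 8 tested raised by butyrate either without or with IL-1β. The 12 fibroblast and stellate markers summed to 13.3 to 23.8 CPM in control and 7.76 to 18.0 with IL-1β (0 raised, 3 lowered). This sum was 17.2 to 21.9 CPM with butyrate (1 raised, 1 lowered) and 8.85 to 26.2 with both (1 raised, 3 lowered against control). Of 9 alpha cell markers, IL-1β raised 1 and lowered 3, and butyrate raised 0 and lowered 4. The PP cell sum (3 markers) was 2238 to 3053 CPM in control, 1826 to 2396 with IL-1β, 3194 to 3924 with butyrate and 2162 to 2852 with both. None of the markers of these cell types was at 0 in all libraries. The part of these shifts in the results below was not tested, and in whole islets fewer cells of a type and less RNA per cell cannot be told apart.

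*Wnt4* was by far the most abundant Wnt ligand of the islets and *Rspo4* the only R-spondin with enough counts. Per length, *Wnt4* had 62.9 ± 3.6 RPKM (SD, n = 4) in control islets, *Rspo4* 36.8 ± 3.7 and the secreted antagonist *Sfrp5* 23.2 ± 0.89, followed by *Lrp6* (7.26 ± 0.26), *Lgr4* (5.72 ± 0.65), *Fzd3* (5.28 ± 0.18), *Fzd6* (4.45 ± 0.13), *Fzd7* (3.68 ± 0.10), *Lrp5* (3.21 ± 0.22) and *Fzd8* (2.11 ± 0.08). *Lgr4* and *Fzd3* lay within 1 SD of each other, and *Axin2* (1.96 ± 0.33) lay within 1 SD of *Fzd8*. All remaining members were at 0.879 RPKM or less, from *Tcf7l2* down. *Wnt4* made up 93.5% to 96.9% of the summed RPKM of the 9 ligands in every library. No receptor held such a share, since *Fzd3*, the Frizzled with the highest mean in control, made up 24.4% to 33.8% of the 9 Frizzleds. With butyrate, *Fzd3* (4.86 ± 0.36 RPKM) and *Fzd7* (4.67 ± 0.41) lay within 1 SD of each other. The lowest member was *Fzd2*, at 0.065 ± 0.043 RPKM in control.

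**Figure D1:**
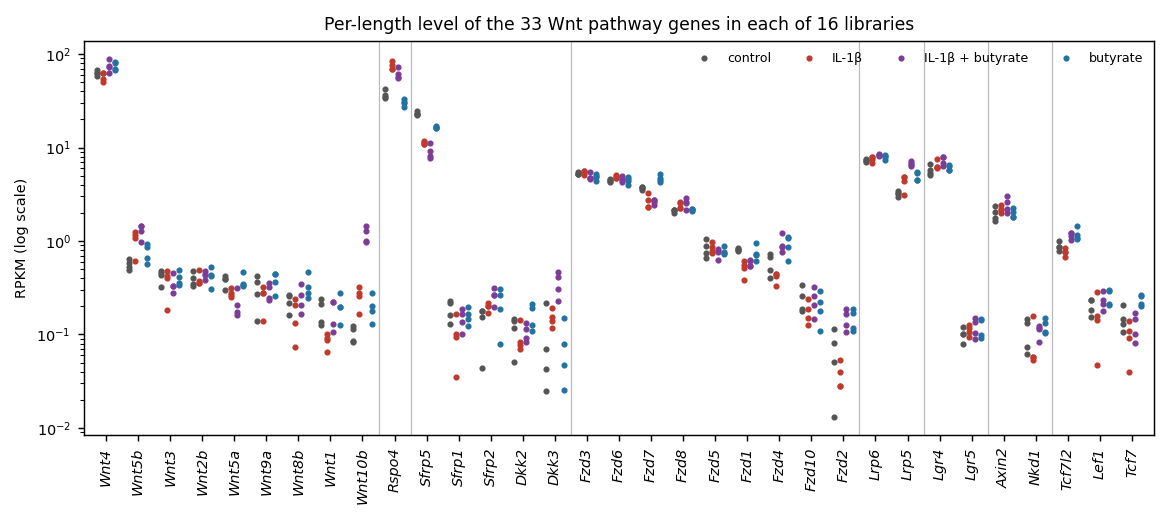
RPKM (CPM per kilobase of exon, log axis) of the 33 genes in each of the 16 libraries, grouped by role between grey lines and ordered within a role by the control mean, with 1 point per library coloured by condition. *Wnt4*, *Rspo4* and *Sfrp5* stand above all other members in control, with both agents some *Sfrp5* points lie below those of *Lrp6*, and the other 8 ligands lie under 2 RPKM in every library.

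Of the members, 20 had at least 10 counts in all 16 libraries. The members that only just met the rule were *Tcf7* and *Wnt1*, with 10 counts in 6 libraries, and *Fzd2* and *Sfrp2*, in 7. Without its 4 butyrate libraries *Tcf7* would have missed the rule, as would *Sfrp2* without its 4 libraries of both agents, and neither was called in any comparison. *Fzd2* had at least 10 counts in 3 libraries of both agents, 3 of butyrate, 1 of control and 0 of IL-1β. It met the rule only through libraries with butyrate, so its call for butyrate given below is not independent of the rule. *Dkk3* had at least 10 counts in 4 libraries of both agents, 2 of IL-1β, 1 of control and 1 of butyrate. It met the rule only through libraries with IL-1β, so its calls given below are not independent of the rule either. The 17 genes that missed it were *Wnt2*, *Wnt3a*, *Wnt6*, *Wnt7a*, *Wnt7b*, *Wnt8a*, *Wnt9b*, *Wnt10a*, *Wnt11*, *Wnt16*, *Rspo1*, *Rspo2*, *Rspo3*, *Dkk1*, *Dkk4*, *Sfrp4* and *Fzd9*. None of these had more than 12 counts in any library and 12 of them had at most 5, so their levels could not be compared at this depth. The nearest to the rule were *Wnt3a* (at most 12 counts), *Fzd9* (11) and *Wnt10a* (10), each with 10 counts or more in 1 library.

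The genes whose IL-1β response was largest among the called members were *Wnt10b*, *Sfrp5* and *Rspo4*, and the 250 bases before the start of each are printed to show the sequence next to genes that rose or fell. They are from the RefSeq promoter table (GRCm38.p6), which holds a window for 23 of the 33 members. They lie at chr15:98778151-98778400 (minus strand) for *Wnt10b* (ENSMUSG00000022996, gene at chr15:98770712-98778150), chr2:151842677-151842926 (plus strand) for *Rspo4* (ENSMUSG00000032852, gene at chr2:151842927-151874668) and chr19:42202253-42202502 (minus strand) for *Sfrp5* (ENSMUSG00000018822, gene at chr19:42197971-42202252). No annotated exon or gene lies in these windows. Each is written 5′ to 3′ on the strand of its gene, and capitals mark a GC box (GGGCGG on either strand).
Wnt10b: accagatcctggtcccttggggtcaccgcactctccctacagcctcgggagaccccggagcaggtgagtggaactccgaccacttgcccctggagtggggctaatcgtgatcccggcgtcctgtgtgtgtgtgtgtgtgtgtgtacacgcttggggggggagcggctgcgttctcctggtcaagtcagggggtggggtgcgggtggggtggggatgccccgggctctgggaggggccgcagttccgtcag
Rspo4: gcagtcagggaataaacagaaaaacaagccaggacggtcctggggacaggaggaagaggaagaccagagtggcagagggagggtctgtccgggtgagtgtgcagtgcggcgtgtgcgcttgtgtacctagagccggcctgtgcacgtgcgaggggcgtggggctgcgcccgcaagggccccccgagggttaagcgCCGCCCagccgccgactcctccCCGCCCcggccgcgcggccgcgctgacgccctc
Sfrp5: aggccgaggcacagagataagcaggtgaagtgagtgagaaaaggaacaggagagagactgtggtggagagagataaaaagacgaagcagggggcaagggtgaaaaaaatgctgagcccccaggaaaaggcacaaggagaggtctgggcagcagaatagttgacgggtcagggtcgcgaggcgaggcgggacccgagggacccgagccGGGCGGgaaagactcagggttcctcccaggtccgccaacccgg
The windows were 66.8%, 69.6% and 59.6% G or C, against a median of 52.4% over all windows. The *Rspo4* window held the GC box at bases -55 to -50 and -33 to -28 before the start and the *Sfrp5* window at -43 to -38, and 32.74% of all 32851 windows held it. None of the 3 windows held the TCF/LEF letters CTTTGAT (in 3.21% of all windows) or CTTTGTT (5.03%), or the AP-1 letters TGANTCA (6.75%), searched on both strands. A match is a description of the letters, and the lack of one says only that they are not in this window.

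IL-1β raised the ligands *Wnt10b* and *Wnt5b* and the agonist *Rspo4*, and lowered the antagonist *Sfrp5* and the receptors *Fzd1* and *Fzd7*. These were 6 of 33 members (18.2%), 3 raised and 3 lowered, where 17.8% of all tested genes were called (11.2% raised and 6.59% lowered), so the members were called about as often as other genes. Raised genes made up 63.0% of all calls, 51.5% under upper-quartile scaling and 79.8% with library sizes alone, while the members stayed at 3 raised and 3 lowered under each. The median log2 fold change was -0.16 for the members and -0.03 for all tested genes. Of the 27 members not called, the largest absolute log2 fold change was 1.01, for *Wnt1*.

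*Rspo4*, the R-spondin that acts through Lgr receptors, had 99.9, 86.9, 82.1 and 80.5 CPM in control replicates 1 to 4 and 199.9, 182.9, 165.1 and 165.3 CPM with IL-1β. Every IL-1β library lay above every control library. The rise was 2.04-fold (log2 1.03 ± 0.09 SE, adjusted p = 3.72e-07). Its receptors did not pass the test: *Lgr4* changed by log2 0.18 ± 0.09 (adjusted p = 0.139) and *Lgr5* by 0.15 ± 0.23 (0.703). With the replicate number as a block in the same test, *Lgr4* did pass (log2 0.19 ± 0.05, adjusted p = 0.00264).

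*Sfrp5*, a secreted Frizzled-related protein that binds Wnts, had 43.4, 42.9, 46.6 and 43.5 CPM in control and 21.0, 21.6, 22.4 and 20.9 CPM with IL-1β. The libraries of each condition lay close together and the conditions did not overlap. The level fell to 0.486 of control (log2 -1.04 ± 0.07 SE, adjusted p = 1.03e-11). *Sfrp5* held 97.8% of the summed RPKM of the 5 antagonists in control and 95.4% with IL-1β, and the sum went from 23.7 ± 0.95 to 11.8 ± 0.38 RPKM. Of the other antagonists, *Dkk2*, *Dkk3*, *Sfrp1* and *Sfrp2* were not called.

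Of the ligands, *Wnt10b* had 6, 10, 6 and 9 counts in control and 21, 18, 11 and 26 with IL-1β, or 0.280 to 0.417 and 0.570 to 1.09 CPM. It rose from a low level (log2 1.32 ± 0.32 SE, adjusted p = 0.0016). *Wnt5b*, a ligand known mainly for non-canonical signaling, had 1.40, 1.54, 1.72 and 1.28 CPM in control and 1.60, 3.12, 2.85 and 3.28 CPM with IL-1β. Replicate 1 lay within the control range and the other IL-1β libraries above it. The fitted rise was 1.84-fold (log2 0.88 ± 0.21 SE, adjusted p = 0.00194), and without IL-1β replicate 4 the adjusted p was 0.013. *Wnt4* had 282.7, 265.7, 261.3 and 245.7 CPM in control and 262.9, 261.9, 227.7 and 212.6 CPM with IL-1β, with overlap, and was not called (log2 -0.13 ± 0.10, adjusted p = 0.377).

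Of the 9 Frizzleds, 2 were lowered and 0 raised. Their median of -0.45 on the log2 scale was the value of *Fzd10*, which had few counts (SE 0.33, adjusted p = 0.341). *Fzd3* (0.04), *Fzd6* (0.14) and *Fzd8* (0.20) had positive values that were not called, and the other Frizzleds had negative ones. The summed RPKM of the 9 was 18.0 ± 0.54 in control and 17.4 ± 0.77 with IL-1β. *Fzd7* had 17.0, 16.7, 17.0 and 16.1 CPM in control and 10.4, 10.4, 14.8 and 12.3 CPM with IL-1β, all below control (log2 -0.48 ± 0.09 SE, adjusted p = 0.000123). *Fzd1* had 3.27, 3.50, 3.44 and 3.34 CPM in control and 1.60, 2.14, 2.54 and 2.35 CPM with IL-1β, again without overlap. It fell by 0.64 on the log2 scale (SE 0.16, adjusted p = 0.00236), and without IL-1β replicate 1 its adjusted p was 0.0133. The co-receptor *Lrp5* was not called (log2 0.43 ± 0.12, adjusted p = 0.0157), with 30.3 CPM in IL-1β replicate 1 and 42.4 to 47.6 in the other 3, where control had 28.6 to 33.7. Without that replicate the adjusted p was 1.89e-06. IL-1β replicate 1 was the lowest library of its condition for 16 of the 33 members (48.5%), against 30.2% of all tested genes. Control replicate 1 was so for 14 (42.4%), against 28.0%.

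**Figure D2:**
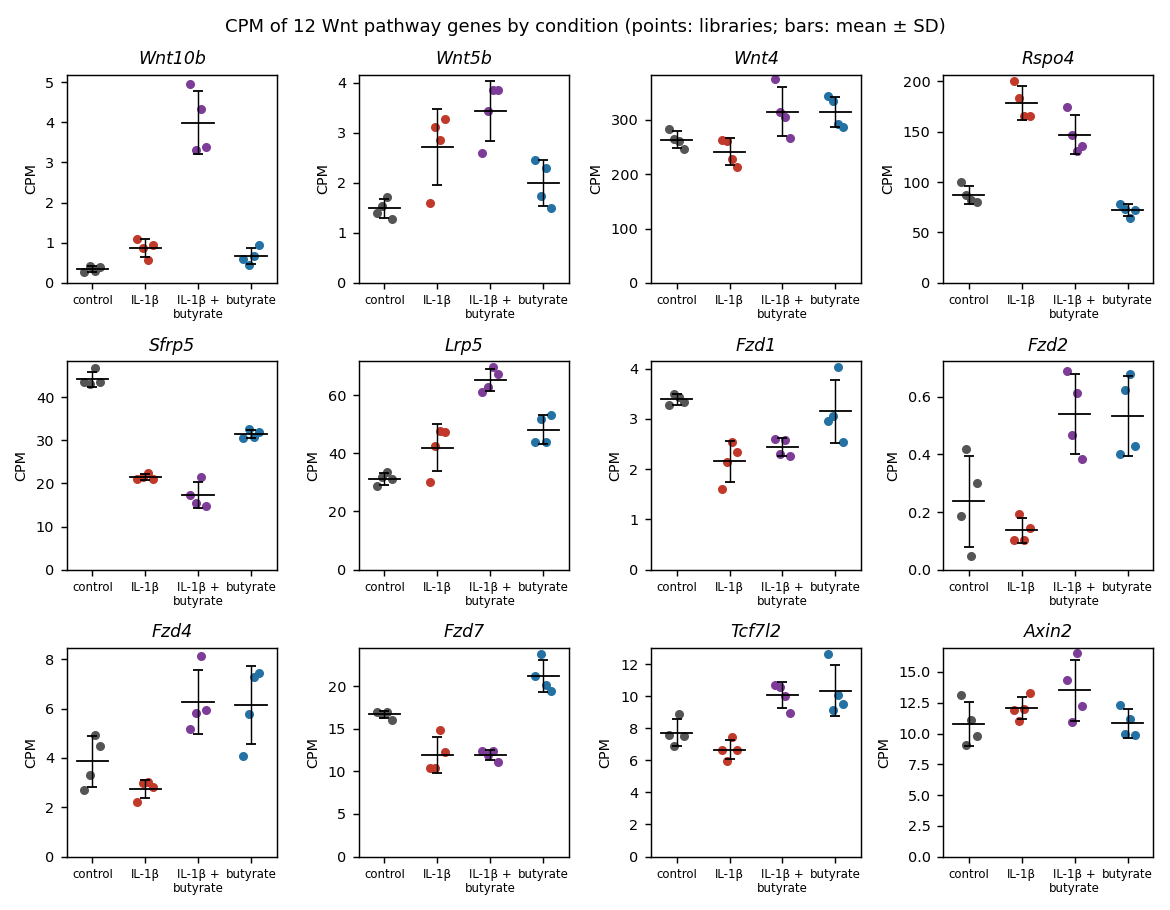
CPM (linear axes from 0) of 12 members in the 4 conditions, with points for the 4 libraries of a condition, a horizontal line for their mean and an error bar of 1 SD. *Rspo4* is higher in both IL-1β conditions, *Sfrp5* is highest in control, and *Wnt10b* lies between 3.31 and 4.95 CPM with both agents and under 1.1 CPM elsewhere.

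Butyrate alone raised the co-receptor *Lrp5*, the transcription factor *Tcf7l2* and the receptor *Fzd7*, and lowered *Sfrp5*. These 4 members (12.1%, 3 raised and 1 lowered) compare with 19.9% of all tested genes (8.53% raised and 11.4% lowered). Raised genes made up 42.9% of all calls and 58.5% under upper-quartile scaling, which raised 4 members. The median log2 fold change was 0.18 for members and 0.01 for all tested genes. None of the 9 ligands passed the test with all 16 libraries and no replicate number in the model. *Wnt4* had 287.1 to 343.7 CPM with butyrate, above all control libraries (log2 0.25 ± 0.10 SE, adjusted p = 0.0627). Its adjusted p in the same test was 8.34e-06 with the replicate number as a block and 0.00229 with only the conditions compared in the fit.

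*Lrp5*, which with Lrp6 carries the Wnt signal beside Frizzled, had 28.6, 31.7, 33.7 and 31.1 CPM in control and 43.8, 51.7, 43.8 and 53.2 CPM with butyrate. It rose 1.54-fold (log2 0.62 ± 0.12 SE, adjusted p = 0.00104). *Lrp6* had 94.7 to 102.6 CPM in control and 100.7 to 114.0 with butyrate and was not called (log2 0.13 ± 0.05, adjusted p = 0.0448). *Tcf7l2*, the TCF/LEF factor with the highest level in these islets, had 7.61, 6.88, 8.89 and 7.49 CPM in control and 12.7, 9.15, 10.1 and 9.55 CPM with butyrate, above control in all 4 libraries. Its rise was 1.34-fold (log2 0.42 ± 0.10 SE, adjusted p = 0.00232), with an adjusted p of 0.0138 without control replicate 2 and 0.0188 without butyrate replicate 1.

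*Fzd7* had 21.2, 23.8, 20.2 and 19.5 CPM with butyrate, above all control libraries (log2 0.34 ± 0.08 SE, adjusted p = 0.00222, and 0.0188 without butyrate replicate 2). *Sfrp5* had 30.6, 32.5, 30.8 and 31.9 CPM with butyrate, between its control and its IL-1β levels. It fell by 0.49 on the log2 scale (SE 0.07, adjusted p = 5.13e-06). *Rspo4* had 78.7, 72.8, 64.5 and 71.8 CPM with butyrate, all below control, and did not pass the test (log2 -0.28 ± 0.10, adjusted p = 0.0402, and 0.00704 without replicate 1 of both agents). *Wnt10b* had 12, 10, 13 and 22 counts with butyrate and was not called either (log2 0.95 ± 0.33, adjusted p = 0.0279). *Fzd4*, with 58 to 105 counts in control and 81 to 173 with butyrate, had a log2 fold change of 0.68 ± 0.20 (adjusted p = 0.0147). Without control replicate 3, butyrate replicate 1 or replicate 3 of both agents its adjusted p was between 0.0011 and 0.00665. It also passed the threshold under DESeq2 (0.00326), and in edgeR's test with the replicate number as a block (7.66e-06) or no filter on low counts (5.61e-06). *Fzd2*, which had few counts, changed by log2 1.10 ± 0.42 (0.0415).

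In the presence of IL-1β, butyrate raised *Wnt10b*, *Fzd2*, *Fzd4*, *Lrp5*, *Tcf7l2* and *Wnt4*, and lowered *Sfrp5*. These 7 members (21.2%, 6 raised and 1 lowered) compare with 19.5% of all tested genes (8.41% raised and 11.1% lowered). Raised genes made up 43.1% of all calls and 57.7% under upper-quartile scaling, which called 7 members raised and 0 lowered. The median log2 fold change was 0.17 for members and 0.01 for all tested genes. Of the 26 members not called, the largest was *Dkk3* at 1.19 ± 0.40 (adjusted p = 0.0224, and 0.00728 without control replicate 4).

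*Wnt10b* had 122, 78, 99 and 70 counts with both agents, or 4.95, 3.31, 4.34 and 3.37 CPM. Each of these libraries lay above every library of the other 3 conditions. It rose 4.56-fold over IL-1β alone (log2 2.19 ± 0.22 SE, adjusted p = 9.87e-09), from 0.87 ± 0.22 to 3.99 ± 0.79 CPM (SD, n = 4). *Wnt4* had 375.4, 314.3, 304.9 and 266.1 CPM with both agents and rose 1.31-fold (log2 0.39 ± 0.10 SE, adjusted p = 0.00679). The *Wnt4* call was lost without single libraries: without any 1 of the 8 libraries compared, other than replicate 4 of both agents, its adjusted p was between 0.0102 and 0.0269. It was also lost with only the conditions compared in the fit (adjusted p = 0.0171).

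The receptor *Fzd4* had 2.22, 2.97, 3.01 and 2.82 CPM with IL-1β and 5.16, 5.81, 8.15 and 5.92 CPM with both agents. It rose 2.26-fold, without overlap (log2 1.18 ± 0.21 SE, adjusted p = 0.000255). *Fzd2* had 2, 4, 2 and 4 counts with IL-1β and 17, 11, 14 and 8 with both, in control 4, 10, 1 and 7 and with butyrate 8, 14, 13 and 10. At these counts the rise was 3.82-fold with a wide error (log2 1.93 ± 0.50 SE, adjusted p = 0.00174), and DESeq2 gave no adjusted p for it. *Fzd2* met the count rule only through libraries with butyrate, so this rise is not independent of the rule. *Fzd7* had 12.3, 12.0, 12.4 and 11.1 CPM with both agents, within the IL-1β range (log2 0.00 ± 0.09, adjusted p = 0.992).

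*Lrp5* had 61.2, 62.9, 69.6 and 67.1 CPM with both agents, its highest level in the 4 conditions, and rose 1.55-fold over IL-1β (log2 0.63 ± 0.11 SE, adjusted p = 0.00072). *Lrp6* made up 69.3% of the summed RPKM of both co-receptors in control, 64.0% with IL-1β, 61.7% with butyrate and 55.5% with both. *Tcf7l2* had 6.67, 5.94, 7.46 and 6.64 CPM with IL-1β and 10.7, 10.6, 10.0 and 8.96 CPM with both, a rise of 1.51-fold without overlap (log2 0.60 ± 0.11 SE, adjusted p = 7.81e-05). *Sfrp5* had 17.4, 15.5, 21.4 and 14.7 CPM with both agents, where replicate 3 overlapped the IL-1β libraries. It fell by a further 0.31 on the log2 scale (SE 0.08, adjusted p = 0.0029), with an adjusted p of 0.0117 to 0.012 without replicate 2 or 4 of both agents and of 0.0108 under upper-quartile scaling. With only the conditions compared in the fit, the adjusted p of *Sfrp5* was 0.016. *Rspo4* had 174.2, 146.3, 131.2 and 136.1 CPM with both agents and was not called against IL-1β (log2 -0.28 ± 0.09, adjusted p = 0.0329, and 0.00119 without replicate 1 of both agents).

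**Figure D3:**
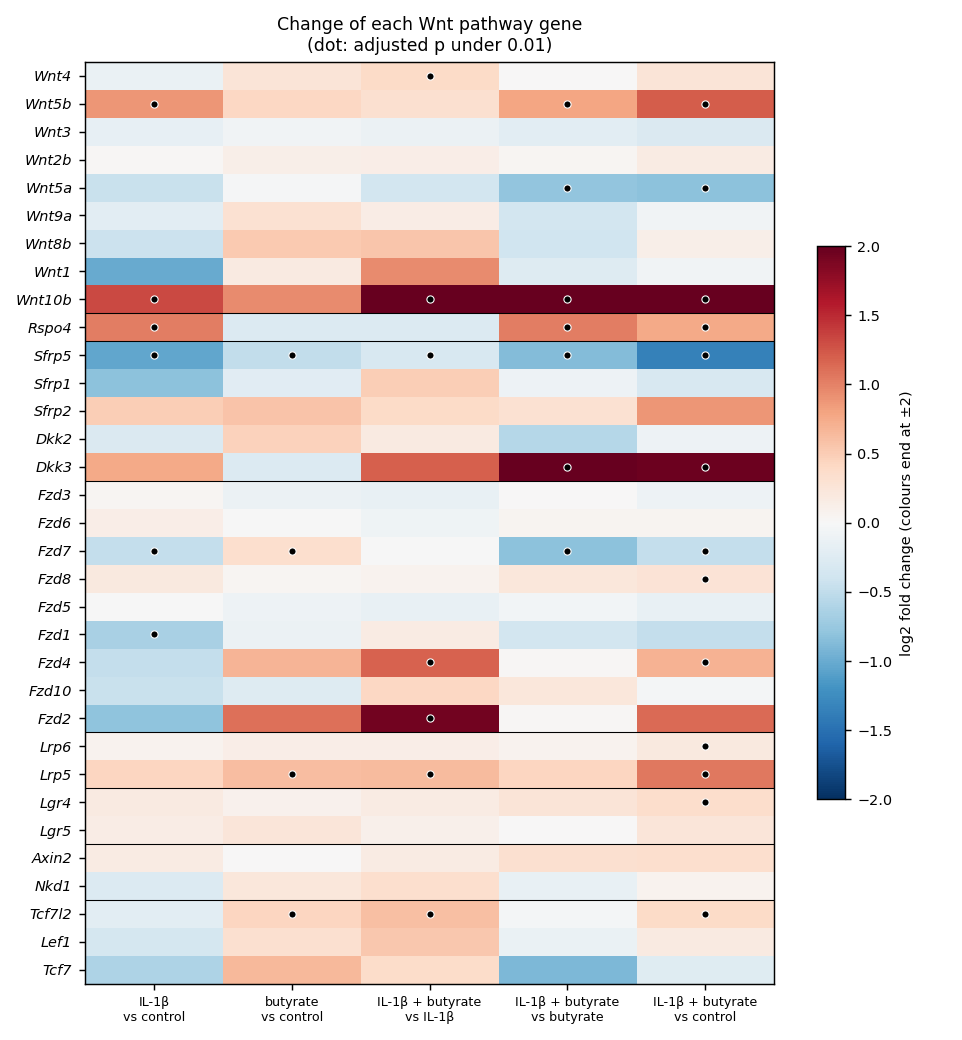
Log2 fold change of each of the 33 genes (rows, grouped by role between black lines) in 5 comparisons (columns), coloured from blue (lower) to red (higher) with the colours ending at ±2, and a dot where the adjusted p was under 0.01. *Sfrp5* is the member with a dot in all 5 columns, and the columns share libraries with each other.

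The effect of butyrate alone and its effect on top of IL-1β come from separate libraries, so their values can be set side by side. *Lrp5* (0.62 and 0.63), *Tcf7l2* (0.42 and 0.60) and *Sfrp5* (-0.49 and -0.31) were called in both. The difference between the effects was tested in the same model, in which 0 of 33 members and 0.0968% of all tested genes (0.0430% raised and 0.0538% lowered) were called. DESeq2 called 0 members as well but gave no adjusted p for 13 of them, and 3 members had an unadjusted p under 0.05. They were *Wnt10b*, with a difference of log2 1.24 ± 0.40 (adjusted p = 0.327), *Fzd7*, with -0.35 ± 0.12 (adjusted p = 0.402), and *Dkk3*, with 1.46 ± 0.71 (adjusted p = 0.671) in edgeR's test. For *Lrp5* the difference was 0.01 ± 0.17, for *Rspo4* 0.00 ± 0.13 and for *Sfrp5* 0.17 ± 0.10.

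**Figure D4:**
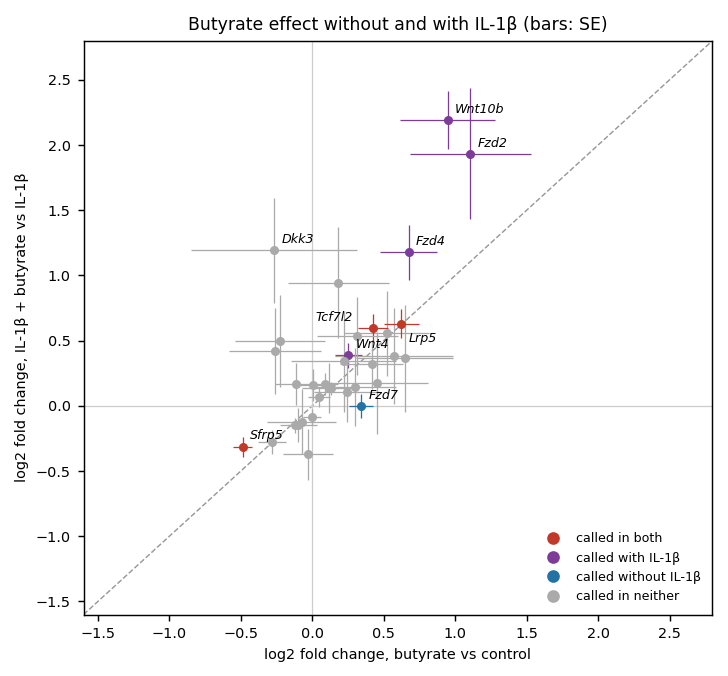
Log2 fold change by butyrate without IL-1β (x axis) and with IL-1β (y axis) for the 33 genes, with bars of 1 SE and a dashed line where both are equal. Colours show where a gene was called, and *Wnt10b*, at 0.95 and 2.19, lies above the line by a difference that was not called.

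With both agents against butyrate alone, that is for IL-1β in the presence of butyrate, 7 members (21.2%, 4 raised and 3 lowered) were called, against 14.8% of all tested genes (9.92% raised and 4.86% lowered). Raised genes made up 67.1% of all calls, 53.2% under upper-quartile scaling and 87.5% with library sizes alone, which raised 7 members. *Wnt10b* rose 5.92-fold (log2 2.57 ± 0.24 SE, adjusted p = 6.69e-10), *Rspo4* 2.04-fold (1.03 ± 0.10, 5.05e-07), *Wnt5b* 1.73-fold (0.79 ± 0.20, 0.00359) and *Dkk3* 4.68-fold (2.23 ± 0.49, 0.000511). *Sfrp5* (-0.87 ± 0.08, 9.81e-10), *Fzd7* (-0.82 ± 0.09, 2.29e-08) and the non-canonical ligand *Wnt5a* (-0.79 ± 0.19, 0.0022) fell. *Dkk3*, a divergent member of the Dickkopf family, had 19 to 36 counts with both agents, 2 to 10 with butyrate, 8 to 18 with IL-1β and 2 to 17 in control. *Dkk3* met the count rule only through libraries with IL-1β, so this rise is not independent of the rule. *Wnt5b* had 2.60, 3.44, 3.85 and 3.85 CPM with both agents and 2.46, 1.73, 2.30 and 1.51 CPM with butyrate. Its adjusted p was between 0.0101 and 0.0235 without replicate 2, 3 or 4 of both agents or butyrate replicate 2 or 4, and that of *Wnt5a* between 0.0122 and 0.0157 without replicate 2 or 3 of both agents or butyrate replicate 3. *Lrp5* (0.43 ± 0.11, adjusted p = 0.0119) passed the threshold without IL-1β replicate 1 (1.58e-05), *Fzd8* (0.22 ± 0.08, 0.0355) without replicate 2 of both agents (0.00501) and *Lgr4* (0.26 ± 0.09, 0.0349) without replicate 3 of both agents (0.00945).

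Against control, both agents together changed 13 members (39.4%), 10 raised and 3 lowered, where 30.6% of all tested genes were called (15.8% raised and 14.8% lowered). Raised genes made up 51.6% of all calls and 66.9% with library sizes alone, which raised 11 members. This comparison shares its libraries with those above, and its values are given beside them. *Wnt10b* was 11.4-fold higher than control (log2 3.51 ± 0.29 SE, adjusted p = 5.72e-12), *Dkk3* 3.89-fold (1.96 ± 0.46, 0.000571), *Wnt5b* 2.30-fold (1.20 ± 0.21, 2.25e-05), *Lrp5* 2.08-fold (1.06 ± 0.12, 3.46e-06) and *Rspo4* 1.68-fold (0.75 ± 0.09, 7.39e-06). The *Dkk3* call is again not independent of the count rule. *Sfrp5* was at 0.392 of control (log2 -1.35 ± 0.07, adjusted p = 4.23e-14), *Wnt5a* at 0.566 (-0.82 ± 0.19, 0.000699) and *Fzd7* at 0.717 (-0.48 ± 0.09, 5.77e-05). With a smaller size, *Lgr4* (0.35 ± 0.09, 0.0024), *Lrp6* (0.20 ± 0.05, 0.00167), *Tcf7l2* (0.39 ± 0.10, 0.00293), *Fzd4* (0.70 ± 0.20, 0.00766) and *Fzd8* (0.27 ± 0.08, 0.00549) were raised. Of these, the calls of *Fzd4*, *Fzd8* and *Tcf7l2* depended on single libraries. The adjusted p of *Fzd4* was between 0.0102 and 0.0298 without any 1 of 10 of the 16 libraries (control replicates 1 and 2, all 4 of IL-1β, butyrate replicate 2, and replicates 2, 3 and 4 of both agents). That of *Fzd8* was between 0.0104 and 0.0419 without control replicate 1, 2 or 3 or replicate 1, 3 or 4 of both agents, and that of *Tcf7l2* between 0.0115 and 0.017 without control replicate 2 or replicate 1 or 2 of both agents. *Fzd1*, *Fzd2* and *Wnt4* were not called against control (adjusted p = 0.0132, 0.0242 and 0.0459). They passed the threshold without IL-1β replicate 1 or butyrate replicate 3 (*Fzd1*, 0.00753 and 0.00904), control replicate 2 (*Fzd2*, 0.00819) and replicate 4 of both agents (*Wnt4*, 0.00548).

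Members that are known as targets and feedback inhibitors of the canonical branch did not pass the test in any comparison with all libraries, although *Axin2* did under some other settings. *Axin2*, a scaffold of the destruction complex and the most used target gene of beta-catenin, had 13.2, 9.05, 11.1 and 9.80 CPM in control, 11.9, 11.1, 12.0 and 13.3 with IL-1β, 12.3, 9.95, 11.2 and 9.85 with butyrate, and 14.4, 10.9, 16.6 and 12.2 with both agents. All 4 conditions overlapped. Its log2 fold change was 0.17 ± 0.12 with IL-1β, 0.01 ± 0.13 with butyrate and 0.16 ± 0.12 for butyrate in the presence of IL-1β. With both agents against control it was 0.33 ± 0.12 (adjusted p = 0.0341), which passed the threshold without control replicate 1 or replicate 2 of both agents (0.00404 and 0.00485), with no filter on low counts (0.000506) and with the replicate number as a block (0.00134). Against butyrate alone it passed with no filter (0.000573) and with the block (0.00344). *Nkd1*, which binds Dishevelled, had 6, 16, 7 and 14 counts in control, 5, 5, 5 and 20 with IL-1β, 12, 11, 13 and 11 with butyrate, and 14, 9, 12 and 11 with both. At these counts its log2 fold changes had an SE of 0.36 to 0.39, and none passed the test.

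*Lgr5*, a receptor of R-spondins and a target gene in stem cells, had 22, 25, 17 and 29 counts in control, 21, 20, 23 and 36 with IL-1β, 20, 21, 28 and 35 with butyrate, and 38, 25, 21 and 29 with both. The conditions overlapped, and its log2 fold changes in the 5 comparisons were between 0.01 and 0.25. *Lef1*, a TCF/LEF factor, had 29, 39, 43 and 48 counts in control, 8, 51, 24 and 38 with IL-1β, 37, 58, 50 and 42 with butyrate, and 39, 49, 43 and 53 with both. IL-1β replicate 1 was its lowest library, and the log2 fold changes were between -0.35 and 0.54. *Tcf7*, the third member of that family, had 2 to 16 counts in a library and was not called either.

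In all, 16 members were called in at least 1 comparison and 17 in none. Called in none were 5 of 9 ligands (*Wnt1*, *Wnt2b*, *Wnt3*, *Wnt8b* and *Wnt9a*), 3 of 5 antagonists (*Dkk2*, *Sfrp1* and *Sfrp2*), 4 of 9 Frizzleds (*Fzd3*, *Fzd5*, *Fzd6* and *Fzd10*), *Lgr5*, *Lef1*, *Tcf7*, *Axin2* and *Nkd1*. They had a median of 0.998 CPM in control, against 10.2 CPM for the members called in some comparison. Some of them were abundant: *Fzd3* (56.2 to 72.7 CPM over the 16 libraries) and *Fzd6* (19.3 to 24.7 CPM), both among the highest Frizzleds, were within log2 -0.15 to 0.14 of their reference in the 5 comparisons. Of these, *Fzd3* passed the threshold for butyrate in the presence of IL-1β without replicate 2 of both agents (log2 -0.23, adjusted p = 0.00284, against 0.0552 with all libraries). The ligands called in none had 3 to 52 counts in a library. The largest of their values was that of *Wnt1* with IL-1β, 4, 5, 3 and 6 counts against 7, 12, 12 and 7 in control (log2 -1.01 ± 0.43, adjusted p = 0.0677). Exons of 3 of the members called in none overlap exons of a gene on the opposite strand by more than 10% of their length: *Sfrp2* by 16.1%, *Fzd5* by 17.8% and *Lef1* by 13.7%. The strand setting of the counting is not given in the sources used here, so reads of such pairs cannot be told apart, and for *Sfrp2* the opposite gene *Gm26771* had more counts over all libraries (195) than *Sfrp2* (153).

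Beyond the ligands and receptors, 7 lists of other pathway genes, written from general knowledge, were counted in the same test. Of all tested genes, IL-1β raised 11.2% and lowered 6.59% (17.8% in all), butyrate 8.53% and 11.4% (19.9%), and butyrate in the presence of IL-1β 8.41% and 11.1% (19.5%). The lists hold 9 to 25 tested genes, so that 1 gene moves a share by several percent. Butyrate raised 6 and lowered 1 of 14 tested genes among other receptors and surface regulators (50.0% called, median log2 0.39) and, in the presence of IL-1β, raised 7 and lowered 2 (64.3%, median 0.49), while IL-1β raised 0 and lowered 1 (7.1%, median -0.14). *Kremen2*, a receptor for Dkk proteins, had 2 to 11 counts with IL-1β and 19 to 28 with both agents (log2 2.30 ± 0.42 SE, adjusted p = 3.22e-05). *Adgra2*, a receptor that works with *Reck* in Wnt7 signaling, had 0.985 to 1.56 CPM with IL-1β and 2.26 to 3.61 CPM with both (log2 1.28 ± 0.18, adjusted p = 2.47e-06). *Ptk7*, a co-receptor of planar cell polarity, went from 3.06 to 3.65 CPM to 5.54 to 7.31 CPM (log2 0.93 ± 0.11, adjusted p = 3.68e-07). *Apcdd1*, a membrane inhibitor and target gene, was lower with both agents (0.731 to 1.49 CPM) than in control (3.79 to 4.63 CPM, log2 -1.86 ± 0.22, adjusted p = 3.64e-08), and butyrate libraries had 0.904 to 1.94 CPM.

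The list of other secreted antagonists had 9 tested genes, and not all are secreted, since it includes *Shisa2*, which acts inside the cell. Of these 9, IL-1β raised 2 and lowered 0 (22.2%, near the 17.8% of all genes). Butyrate raised 4 and lowered 1 (55.6%, against 19.9%), and in the presence of IL-1β raised 3 and lowered 1 (44.4%, against 19.5%). *Igfbp4*, an IGF-binding protein that can also block Wnt receptors, had 0.751 to 1.93 CPM in control, 9.46 to 10.9 with IL-1β, 3.21 to 3.61 with butyrate and 19.6 to 29.2 with both (log2 4.07 ± 0.20 against control, adjusted p = 3.17e-14). *Wif1*, which binds Wnts, had 0.428 to 0.669 CPM in control and 1.80 to 2.17 CPM with both agents (log2 1.73 ± 0.23, adjusted p = 4.62e-07). *Shisa2*, which retains Frizzleds inside the cell, fell with butyrate from 25.0 to 25.6 CPM to 14.9 to 17.5 CPM (log2 -0.67 ± 0.06, adjusted p = 4.37e-09). *Notum*, the enzyme that removes the lipid from Wnts, had 1 count in each control library, 0 in each IL-1β library, 5, 12, 5 and 13 with butyrate and 14, 13, 14 and 8 with both. With 3 counts taken as the floor over the 4 IL-1β libraries, its level was at least 15.5-fold higher with both agents than with IL-1β (edgeR's adjusted p = 1.5e-06).

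Of 15 genes of Wnt secretion and release, IL-1β raised 4 and lowered 1 (33.3%, against 17.8% of all genes), and butyrate in its presence raised 1 and lowered 5 (40.0%, against 19.5%). Besides *Notum*, the genes of this list that moved most were not parts of the secretion route itself. *Sulf1* and *Sulf2*, which trim heparan sulfate at the cell surface, were both raised by IL-1β, and *Sulf1* went from 0.685 to 1.54 CPM to 25.4 to 44.8 CPM (log2 5.16 ± 0.36 SE, adjusted p = 3.45e-09). With both agents *Sulf1* had 4.91 to 8.08 CPM. *Sulf2* had 8.31 to 10.6 CPM in control, 26.9 to 34.3 with IL-1β, 3.45 to 4.66 with butyrate and 14.7 to 20.8 with both, and differed by log2 1.99 ± 0.13 between the last pair of conditions (adjusted p = 1.53e-11). The glypican *Gpc6* was lower with both agents (0.613 to 1.06 CPM) than in control (1.82 to 4.20 CPM, log2 -1.89 ± 0.28, adjusted p = 2.18e-06).

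Inside the cell, the destruction complex and its regulators (24 genes) had 1 raised and 3 lowered with IL-1β, 4 and 2 with butyrate, and 4 and 2 when butyrate was added to IL-1β, with medians of 0.02, 0.06 and 0.05. These were 16.7%, 25.0% and 25.0% of the list, near the 17.8%, 19.9% and 19.5% of all genes. With both agents against control, 8 were raised and 3 lowered (45.8%, against 30.6% of all genes). *Dact3*, one of the Dishevelled-binding Dact proteins, had 4.58 to 5.59 CPM with IL-1β and 10.2 to 12.2 CPM with both agents (log2 1.10 ± 0.09 SE, adjusted p = 2.91e-10), where control had 5.69 to 6.59 and butyrate 12.0 to 12.9 CPM. Its paralog *Dact2* went the other way, from 46.5 to 52.0 CPM in control to 22.4 to 28.3 CPM with both (log2 -1.03 ± 0.08, adjusted p = 7.49e-11), and *Dact1* was lowered by butyrate added to IL-1β (log2 -0.50, SE 0.09, adjusted p = 0.000125). Of 18 nuclear partners of beta-catenin, butyrate raised 4 and lowered 4 (44.4%, against 19.9%), and in the presence of IL-1β raised 6 and lowered 2 (44.4%, against 19.5%). Both agents against control raised 5 and lowered 5 of these partners (55.6%, against 30.6%). *Pygo1*, a co-activator, rose by log2 1.21 ± 0.17 (adjusted p = 1.66e-05) and the co-repressor *Ctbp2* by 0.57 ± 0.07 (2.04e-07) over IL-1β alone. Against control, the Groucho-related *Tle6* rose with both agents by 1.20 ± 0.07 (1.46e-13), and *Ctnnbip1*, which blocks the contact of beta-catenin with TCF, fell by 0.71 (SE 0.07, 1.62e-09).

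The list of 18 canonical target genes showed both directions in each comparison. IL-1β raised 2 and lowered 2, butyrate raised 1 and lowered 3, and butyrate in the presence of IL-1β raised 2 and lowered 3, with medians of -0.10, 0.08 and 0.08. The shares called were 22.2%, 22.2% and 27.8%, against 17.8%, 19.9% and 19.5% of all genes. With both agents against control, 5 were raised and 4 lowered (50.0%, against 30.6% of all genes). With both agents against butyrate, 4 were raised and 1 lowered (27.8%, against 14.8%). *Notum* and *Apcdd1*, given above, are in this list too. *Ephb3*, a guidance receptor, had 11 to 18 counts with IL-1β and 28 to 36 with both agents (log2 1.03 ± 0.25 SE, adjusted p = 0.00197). The growth regulator *Myc* was lower with both agents (1.78 to 2.46 CPM) than in control (4.06 to 5.01 CPM, log2 -1.09 ± 0.15, adjusted p = 1.05e-06). In the test of the difference between the butyrate effects, 0 genes of the 7 lists were called.

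**Figure D5:**
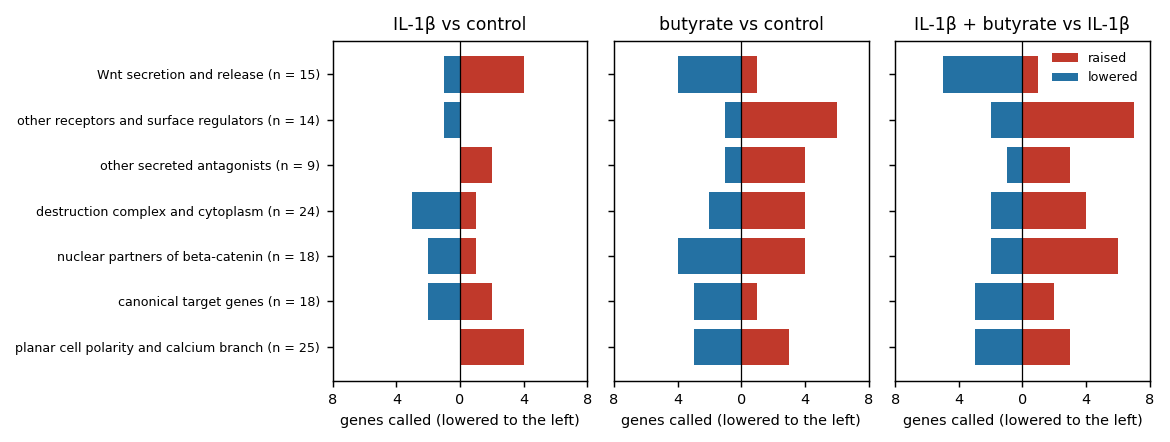
Number of genes raised (red, to the right) and lowered (blue, to the left) at an adjusted p under 0.01 in each of the 7 lists of other Wnt pathway genes (n, genes tested), for IL-1β against control, butyrate against control and butyrate in the presence of IL-1β. Other receptors and surface regulators have 6 and 7 genes raised in the butyrate comparisons and 0 with IL-1β, and some genes are in more than 1 list.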

How the data were processed

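RNA was sequenced from 16 libraries of mouse islets, 4 for each of 4 conditions. Single-end reads were aligned to GRCm38, given as mm10 and GRCm38.p5 in the submitters' processing notes, which also name bcl2fastq 2.19.1, STAR 2.5.3a, FastQC 0.11.7, MultiQC 1.7 and DESeq2. The annotation release, the counter and the strand setting are not given in the sources used here. The deposited values are the authors' counts of reads per gene, whole numbers without normalization, and 0 columns were left unused. Symbols, positions and exon lengths were taken from GENCODE M21, which held 52489 of 52636 identifiers. Averaged over genes with a mean of at least 10 counts in a pair of libraries, counting error was smaller than the spread between libraries of a condition. For genes with fewer counts this was not examined, and reads carried no molecular identifiers.

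Tests used edgeR 4.0.16 in R 4.3.3. After filterByExpr (18587 genes left) and TMM scaling, all 16 libraries entered 1 robust quasi-likelihood model with the 4 conditions and without the replicate number. Contrasts were adjusted by Benjamini-Hochberg over all tested genes and called under 0.01, the threshold of the study, which used DESeq2. DESeq2 1.42.0 was an alternative, among 24 in all, 16 of which left out 1 library. Errors are SD over libraries or SE of the fitted log2 fold change. The p-values measure the spread between pools of islets cultured under the same condition, and whether pools shared mice is not given. The fit was tested on simulated counts. Members and lists were chosen with earlier results of these data known. Values of every library are given for up to 8 called members with the largest change in each of the comparisons of IL-1β or butyrate with control and of both agents with IL-1β, and for *Axin2*, *Lgr5*, *Nkd1*, *Tcf7l2* and *Lef1*. Up to 4 called genes with the largest change are named per other pathway list. Values of *Wnt1* and *Dkk3* beyond this were chosen after they were seen.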

Additional observations from a re-analysis of the deposited data

Results flagged for a closer look

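A library was looked for that stood far from the other 3 of its condition, in the CPM of 15 members by Dixon's criterion over 60 groups of 4 libraries, of which chance marks about 5%. It marked 2 of them. *Sfrp5* had 46.6 CPM in control replicate 3, where the other control libraries had 42.9 to 43.5. *Nkd1* had 0.722 CPM (20 counts) in IL-1β replicate 4, where the other 3 IL-1β libraries had 0.243 to 0.259 CPM (5 counts each). Neither library altered a call of these members, as *Sfrp5* was lowered by IL-1β and *Nkd1* was not called whichever of the 16 libraries was left out.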

How the results depend on the processing

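Over 5 comparisons the members gave 37 calls. Under 23 alternatives at an adjusted p under 0.01, 25 of them were kept in every one, 1 (*Fzd2*, both agents against IL-1β) was kept wherever it had an adjusted p but had none under DESeq2, 11 were lost in at least 1 and 0 changed direction, and of 161 pairs of a member and a comparison that were not called, 20 were called in at least 1. Without 1 library the number of members called was 5 to 6 for IL-1β against control, 3 to 5 for butyrate against control, 6 to 8 for both agents against IL-1β, 6 to 8 against butyrate, 11 to 14 against control and 0 for the difference of the butyrate effects. For butyrate against control it was 7 with the replicate block and 9 at an adjusted p under 0.05, against 4. DESeq2 added 5 calls (*Lrp5* in both IL-1β comparisons, *Fzd4* with butyrate, *Rspo4* in both butyrate comparisons) and ended 0 of those with an adjusted p, which it did not give for 23 pairs of a member and a comparison, the call of *Fzd2* among them. With no filter on low counts 7 calls were added and 0 lost. Same-numbered libraries of different conditions correlated at 0.053 to 0.397 in their deviations from the condition means over 24 pairs, 17 of them over 0.1, and 10 of 16 libraries correlated best with their own number in all other conditions. The study speaks of 4 independent experiments, and the sample numbers in the count table run through the 4 conditions within each replicate number, but no source used here says that a replicate number marks 1 experiment. Libraries of different conditions with unlike numbers correlated at -0.293 to 0.170. All 24 same-numbered correlations were positive, and the study compared its islet qPCR values by paired t-tests. The main fit left the number out because not every such pair was over 0.1. That cut was a choice, and it does not show that the libraries are unpaired. If a number does mark 1 experiment, the main fit ignores a pairing, and members not called in it need not be unchanged. With the replicate block, 9, 7, 10, 10, 16 and 0 members were called in the comparisons in the order above, and 15 calls were added and 0 lost (*Lgr4* in 3 comparisons, *Fzd4*, *Lrp5*, *Rspo4*, *Wnt4* and *Axin2* in 2 each, *Dkk3* and *Fzd1* in 1 each). Members near or under 1 CPM, such as *Fzd2* and *Nkd1*, had few counts, and changes of the size of their errors were not detectable at this depth.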

Other observations

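The planar cell polarity and calcium branch, by which non-canonical Wnts act on the cytoskeleton and on calcium, had 4 of 25 tested genes raised and 0 lowered by IL-1β, 3 and 3 by butyrate, and 3 and 3 by butyrate in the presence of IL-1β. As shares of the list these are near those of all tested genes (17.8%, 19.9% and 19.5%). With both agents against control, 6 were raised and 2 lowered (32.0%, against 30.6% of all genes). *Camk2a*, a calcium-dependent kinase, had 0.430 to 0.685 CPM in control, 2.64 to 6.60 with IL-1β, 0.489 to 1.25 with butyrate and 3.74 to 7.75 with both (log2 3.18 ± 0.41 SE for both against control, edgeR's adjusted p = 1.3e-06). *Prickle2* and *Vangl2*, core planar polarity genes, had higher levels with butyrate. *Prickle2* had 3.34 to 4.39 CPM in control and 5.74 to 7.39 with both agents (log2 0.74 ± 0.12, adjusted p = 8.6e-06), and *Vangl2* 4.55 to 6.46 CPM with IL-1β and 8.06 to 10.7 with both (log2 0.71 ± 0.11, adjusted p = 1.55e-05). *Daam2*, a formin that binds Dishevelled, had 11 to 22 counts in control and 29 to 42 with both agents (log2 1.05 ± 0.24, adjusted p = 0.000744).

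In IL-1β replicate 1, 16 of 33 members had the lowest CPM of the 4 IL-1β libraries (48.5%, against 30.2% of all tested genes), and in replicate 1 of both agents 17 of 33 had the highest, against 26.2% of all tested genes. Control replicate 1 was the lowest control library for 14 members (42.4%, against 28.0% of all tested genes). Butyrate replicate 4 was the lowest butyrate library for 12 (36.4%, against 26.1%).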
